A study of Mus musculus with 2 samples.

Results

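Heat shock proteins, J-domain proteins and the subunits of the cytosolic chaperonin were compared between mouse converted epiblast stem cells and embryonic stem cells. Members were chosen by a rule on the gene symbol that uses no measured value, though earlier results of these data were known. Of the 18032 listed genes, 81 met the rule. They comprised 3 genes of the HSP90 family, 11 of HSP70, 3 of HSP110, 7 of the small heat shock proteins, the 2 mitochondrial chaperonin genes of HSP60 and HSP10, 10 genes of the chaperonin CCT, and 4, 12 and 29 J-domain genes of the A, B and C classes. Of these, 73 reached 1 CPM (counts scaled to library size) in at least 1 library and are called tested below, out of 13243 such genes in all. Polyadenylated RNA had been sequenced from 2 populations of the wild-type line E14TG2a, with 1 library each. The cEpiSC library came from converted epiblast stem cells. These had been plated on fibronectin in 2iLIF and, after 24 h, given N2B27 medium with activin A at 20 ng/ml and FGF2 at 12 ng/ml for 2 days. The mESC library came from ground-state embryonic stem cells kept in 2iLIF, which is N2B27 with LIF at 100 units/ml, the ERK pathway inhibitor PD0325901 at 1 µM and the GSK3 inhibitor CHIR99021 at 3 µM. Each state is thus 1 culture of 1 cell line. No difference below has a replicate check or a p-value, and the state of the cells cannot be told apart from the medium, its inhibitors and its growth factors.

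Molecular chaperones bind proteins that are not in their folded form. HSP70 binds short exposed stretches and is loaded by J-domain proteins, which stimulate its ATPase, while HSP110 exchanges its nucleotide. HSP90 acts later, on kinases, receptors and other nearly folded clients. The chaperonins enclose a folding chain in a chamber, CCT in the cytosol, with actin and tubulin as its best known clients, and HSP60 with its lid HSP10 in mitochondria. Small heat shock proteins hold unfolded proteins without ATP. Many of these genes are induced under stress by the heat shock factor HSF1, and those of the endoplasmic reticulum (ER) by the unfolded protein response. Others are expressed in every cell at all times, and pluripotent cells are known for high levels of several of them.

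Levels are given in CPM or, where genes are compared with each other, in TPM, the deposited transcript abundance per length. Each log2 ratio is cEpiSC over mESC from estimated counts, scaled by TMM factors and with a prior count of 2 added. The bracketed range is an exact 95% interval of the ratio without that prior. It reflects the counting of reads alone and treats amplified reads as separate molecules, so it understates the true error. A gene was called higher or lower by size only, at 2-fold or at 1.5-fold. Where a ratio or call between the libraries is given with TPM or FPKM, a pseudocount of 1 was added to each level. That shrinks the ratios of scarce genes. The libraries held 19956736 (cEpiSC) and 19843731 (mESC) estimated counts. In these bulk samples, fewer cells with a transcript and less of it per cell cannot be told apart.

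The labels of the libraries were checked against marker genes. The 5 naive markers summed to 821.9 CPM in cEpiSC and 2619 CPM in mESC. The 4 primed markers summed to 612.5 CPM in cEpiSC and 91.3 CPM in mESC, with Fgf5 at 0 in mESC. Naive markers were thus lower in cEpiSC but still present. Pou5f1 and Sox2 together had 1345 CPM in cEpiSC and 1195 CPM in mESC. Markers of primitive endoderm (14.9 CPM in cEpiSC and 16.7 CPM in mESC), mesendoderm (14.2 and 16.9 CPM), neural cells (7.57 and 3.57 CPM) and fibroblasts (7.18 and 3.88 CPM) were low in both. Foxa2 and Lum were at 0 in cEpiSC, and Neurog2 and Dcn at 0 in mESC. The part of these cells in the differences below was not tested.

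Promoter sequences are shown first because 2 response programmes, heat shock and ER stress, have known DNA elements that mark their chaperone genes. RefSeq windows of GRCm38.p6, from 250 bases before to 50 bases after each start site, were found for 65 of the 81 members. Both strands were searched. The heat shock element was written as GAANNTTC or TTCNNGAA for 2 units. For 3 units a further GAA or TTC had to follow 2 bases after, in the alternating order, so that each match of 3 units holds matches of 2 units. The ER stress element was written as CCAAT and CCACG with any 9 bases between them. The 2-unit form was present for 19 of 65 members (29.2%), and for 17% of all 27025 genes with a window. The 3-unit form was present for 4 members (6.15%), which were Dnajb6, Hspd1, Hspe1 and Hsph1, and for 0.662% of all genes. The ER stress element was present for 3 members (4.62%), which were Dnajc3, Hsp90b1 and Hspa5, and for 0.137% of all genes. By windows, of which there were 32851, the shares were 15.1%, 0.603% and 0.119% for the 3 motifs in that order.

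The stretches around the 3-unit heat shock elements follow, 5′ to 3′ on the strand of the gene, with the matched bases in capitals. The stretch of Hspe1 lies at chr1:55088019-55088116 on the plus strand, Hsph1 at chr5:149636286-149636340 on the minus strand and Dnajb6 at chr5:29735812-29735904 on the plus strand. The capitals of Hspe1 hold 2 overlapping 3-unit matches, and the same bases, read on the other strand, are the match of Hspd1.
Hspe1: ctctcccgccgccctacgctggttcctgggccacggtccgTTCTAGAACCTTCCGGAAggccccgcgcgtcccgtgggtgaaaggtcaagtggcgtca
Hsph1: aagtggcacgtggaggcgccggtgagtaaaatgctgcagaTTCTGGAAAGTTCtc
Dnajb6: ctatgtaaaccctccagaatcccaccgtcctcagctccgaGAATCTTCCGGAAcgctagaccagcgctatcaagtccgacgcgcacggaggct
The stretches around the ER stress elements lie at chr2:34771985-34772083 (Hspa5, plus strand), chr10:86705493-86705694 (Hsp90b1, minus strand, with 2 matches in opposite orientation) and chr14:118937787-118937885 (Dnajc3, plus strand).
Hspa5: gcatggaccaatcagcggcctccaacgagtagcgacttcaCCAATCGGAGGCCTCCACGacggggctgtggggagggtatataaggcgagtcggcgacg
Hsp90b1: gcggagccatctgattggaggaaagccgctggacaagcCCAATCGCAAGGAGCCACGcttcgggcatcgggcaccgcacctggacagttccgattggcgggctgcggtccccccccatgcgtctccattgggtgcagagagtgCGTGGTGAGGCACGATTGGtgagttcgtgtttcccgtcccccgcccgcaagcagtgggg
Dnajc3: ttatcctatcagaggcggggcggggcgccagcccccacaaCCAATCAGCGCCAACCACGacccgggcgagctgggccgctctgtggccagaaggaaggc
A match is only a description of the letters in a window. It was not a measurement of binding, and a window without one says nothing of regulation elsewhere.

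**Figure D1:**
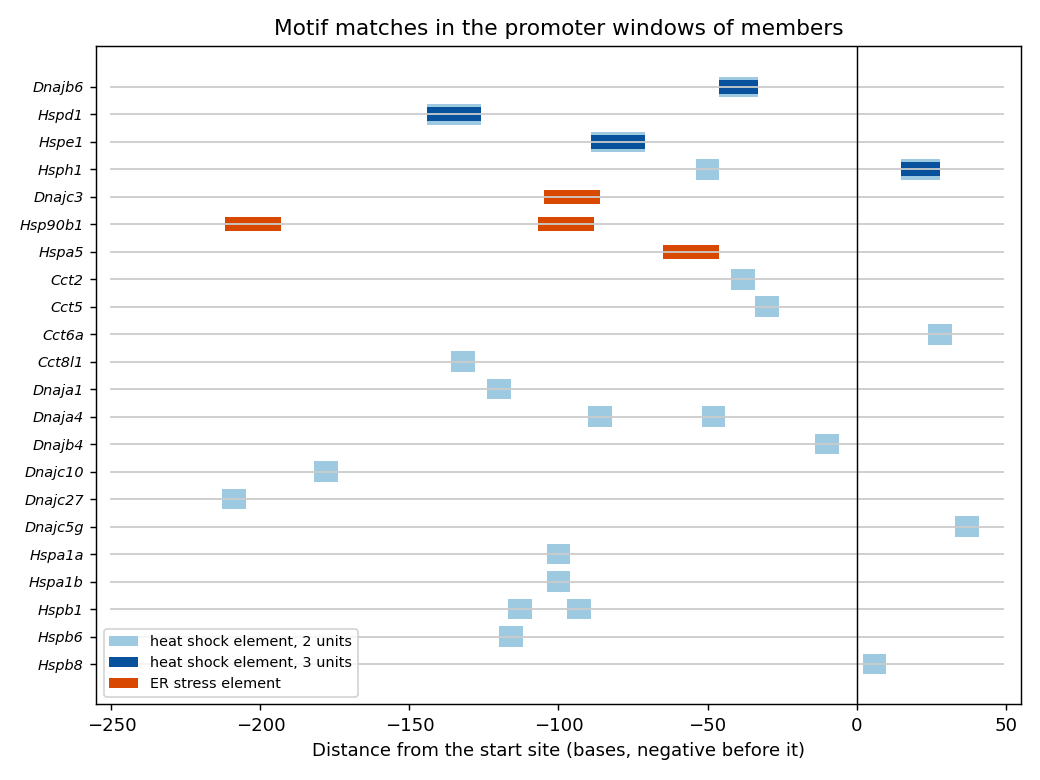
Positions of motif matches in promoter windows of members with at least 1 match, by distance from the start site in bases (x axis), for the window with the lowest coordinate where several hold a match. Light blue marks the 2-unit heat shock element, dark blue the 3-unit form (4 members) and orange the ER stress element (3 members, with 2 matches for Hsp90b1).

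Taken as a whole, the chaperone transcripts differed little in level between the libraries. The members' summed TPM was 21425 in cEpiSC and 22294 in mESC, which is 2.14% and 2.23% of all TPM. Hsp90ab1, Hsp90aa1 and Hspa8 alone made up 49.4% of that sum in cEpiSC and 51.8% in mESC. The median log2 ratio of the 73 tested members was -0.03, and that of all tested genes was -0.02. At 2-fold, 5 members (6.85%) were called higher in cEpiSC, where 13.6% of all tested genes were. These were Dnaja4, Dnajb5, Hspa1a, Hspa4l and Hspb11. The 2 members called lower (2.74%), where 9.25% of all tested genes were, were Hspb7 and Hspb8.

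At 1.5-fold, 10 members (13.7%) were called higher, against 20.7% of all tested genes, and 7 (9.59%) lower, against 18.9%. The remaining 56 lay within 1.5-fold. A ratio above 0 was found for 32 members (43.8%), near the 48.8% of all tested genes. Since most members are abundant and large ratios are commoner among scarce genes, the counts were repeated at 10 CPM or more in either library. Of the 59 members left, 2 (3.39%) were called higher at 2-fold, where 6.81% of the 9798 such genes were, and 1 (1.69%) lower, where 7.96% were. At 1.5-fold, 3 (5.08%) were higher, beside 12.7% of such genes, and 5 (8.47%) lower, beside 18.5%. A ratio above 0 was found for 23 of them (39%), beside 43.8%. The members' shares were below those of all tested genes in every one of these comparisons, but no test of the difference was made.

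**Figure D2:**
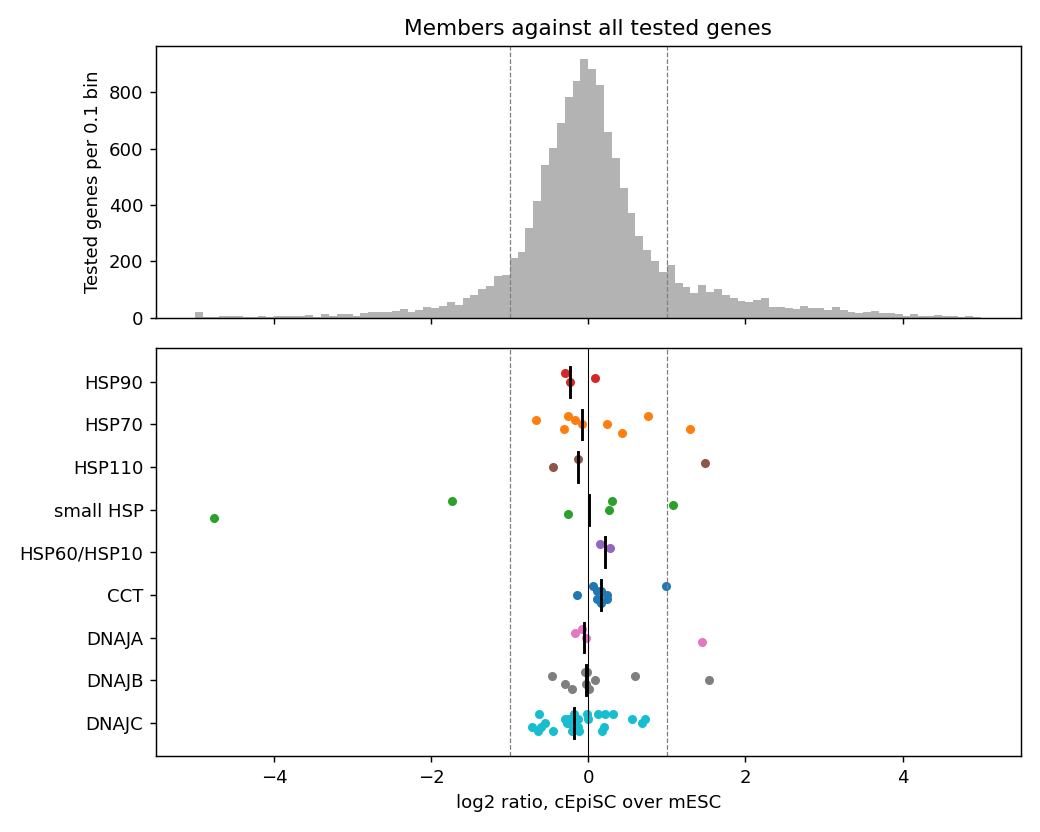
Number of tested genes in each 0.1 step of the log2 ratio of cEpiSC over mESC (top, with ratios beyond 5 in either direction drawn in the end bins), and the ratio of each tested member by family (bottom), where a black bar is the family median and dashed lines mark 2-fold. Most members cluster near 0, and Hspb7 at -4.77 and Hspb8 at -1.74 lie farthest to the left. Hspb7 had 0 counts in cEpiSC, so its place depends on the prior count of 2. It was at -6.73 with a prior count of 0.5 and at -3.52 with 5.

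The HSP90 family supplied the most abundant transcripts of the set. Its cytosolic isoforms had ratios of opposite sign, though Hsp90ab1 differed little. Hsp90ab1 encodes the constitutive cytosolic HSP90 beta (chromosome 17, 45567778 to 45573261 in GRCm38.p6). It stood at 4737 TPM in cEpiSC and 4631 TPM in mESC, and ranked 19 among all genes in cEpiSC and 16 in mESC. Its log2 ratio was 0.08 (0.07 to 0.09), and over the other settings it ran from 0.03 with TPM to 0.15 with FPKM. Hsp90aa1 encodes the stress-inducible HSP90 alpha and had 2994 TPM in cEpiSC and 3801 TPM in mESC, with a log2 ratio of -0.30 (-0.31 to -0.28). The ratio of Hsp90aa1 to Hsp90ab1 within a library, in TPM, was thus 0.632 in cEpiSC and 0.821 in mESC. Hsp90b1, the gene of the ER member GRP94, had 341 TPM in cEpiSC and 414 TPM in mESC, with a log2 ratio of -0.23 (-0.27 to -0.19). All 3 were within 1.5-fold, and the summed level was 8072 TPM in cEpiSC and 8846 TPM in mESC.

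**Figure D3:**
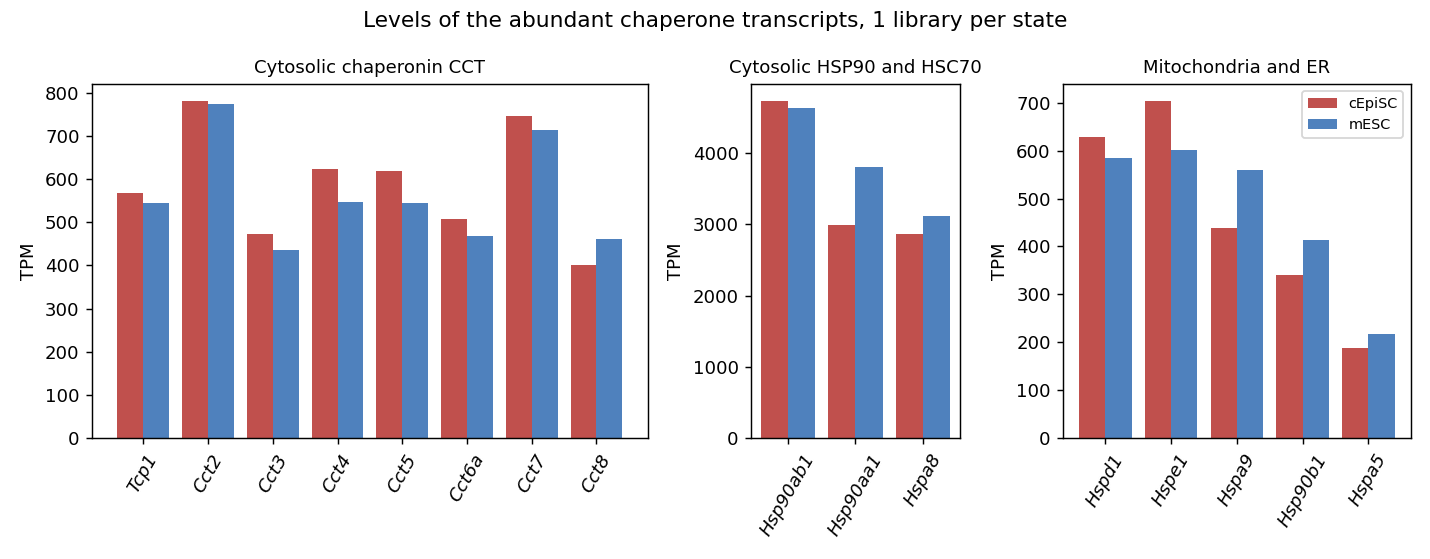
Levels in TPM of the 8 ubiquitous CCT subunits (left), the cytosolic HSP90 genes and Hspa8 (middle) and chaperones of the mitochondria and ER (right) in cEpiSC (red) and mESC (blue), 1 library each, so without error bars. The red bar is the taller for every CCT subunit except Cct8, for Hsp90ab1, and for Hspd1 and Hspe1, and the shorter for Hsp90aa1, Hspa8, Hspa9, Hsp90b1 and Hspa5.

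Among the HSP70 genes, ratios lay on both sides of 0. Of the 4 most abundant, Hspa8, Hspa9 and Hspa5 were slightly lower in cEpiSC and Hspa14 slightly higher. Hspa8, which encodes the constitutive cytosolic HSC70, had 2861 TPM in cEpiSC and 3116 TPM in mESC, with a log2 ratio of -0.08 (-0.09 to -0.06). Hspa9, the gene of mitochondrial mortalin, had 439 TPM in cEpiSC and 560 TPM in mESC, and its ratio was -0.31 (-0.34 to -0.27). Hspa5 encodes the ER chaperone BiP, a regulator and target of the unfolded protein response. It had 188 TPM in cEpiSC and 218 TPM in mESC, at -0.17 (-0.22 to -0.12). Hspa13, an ER-associated relative, was called lower at 1.5-fold, with 276 counts in cEpiSC and 415 in mESC (-0.67 [-0.89 to -0.45]). It lay within 1.5-fold when ratios were centred on transcript length, and with FPKM.

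The classical heat-inducible genes Hspa1a and Hspa1b, near-identical neighbours on chromosome 17, were scarce in both libraries. Hspa1b had 7.88 TPM in cEpiSC and 6.08 TPM in mESC, with a log2 ratio of 0.42 (0.14 to 0.71). Hspa1a had 65.1 estimated counts in cEpiSC and 23.8 in mESC. It was called higher at 2-fold, with a ratio of 1.29 (0.66 to 2.10), but not with TPM (0.75) or FPKM (0.62). The pseudocount of 1 weighs on these last 2, as Hspa1a had 2.04 TPM in cEpiSC and 0.81 TPM in mESC. The counts of both were not whole numbers, as happens when reads fit several loci, so the split between them is uncertain. Together they remained far below Hspa8, with the level of Hspa1b at 0.00276 of that of Hspa8 in cEpiSC and 0.00195 in mESC, in TPM. Hspa12a, an atypical and distant family member, was called higher at 1.5-fold, with 178 counts in cEpiSC and 99 in mESC (0.75 [0.40 to 1.14]), though not with TPM or FPKM. Hspa14, which encodes a ribosome-associated HSP70, had 205 TPM in cEpiSC and 178 TPM in mESC (0.24 [0.17 to 0.31]). Hspa2, a gene best known from male germ cells, had 7.04 CPM in cEpiSC and 8.42 CPM in mESC (-0.26 [-0.59 to 0.07]), with no difference detectable at this depth.

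The HSP110 genes, nucleotide exchange factors of HSP70, split by abundance. Hspa4l, known for its expression in testis (chromosome 3, 40744500 to 40796103), had 411 counts in cEpiSC and 137 in mESC. It was 2.84-fold higher, with a log2 ratio of 1.49 (1.22 to 1.79). Its close relative Hspa4 was far more abundant, with 213 TPM in cEpiSC and 242 TPM in mESC, and the ratio was -0.14 (-0.17 to -0.10). In TPM, Hspa4l had 0.0415 of the level of Hspa4 in cEpiSC and 0.0134 in mESC, so Hspa4 supplied nearly all of the pair's transcripts in both. The sign of Hspa4 turned with centring on transcript length (0.01). Hsph1, the stress-inducible HSP110 with a 3-unit heat shock element shown above, had 60.7 TPM in cEpiSC and 85.8 TPM in mESC, with a ratio of -0.45 (-0.53 to -0.37).

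Small heat shock protein genes spanned the widest range of ratios among the families, with Hspb8 and Hspb7 lower and the abundant Hspb1 slightly higher in cEpiSC. Hspb8 (chromosome 5, 116408491 to 116422864) encodes a small heat shock protein that works with the co-chaperone BAG3 in handing misfolded proteins to autophagy. It had 941 counts in cEpiSC and 2971 in mESC, at 46.3 and 160 TPM. This was 3.34-fold lower, a log2 ratio of -1.74 (-1.85 to -1.63), and only 3.69% of tested genes had a lower ratio. Bag3, from the list of co-chaperones below, had 892 counts in cEpiSC and 1749 in mESC (-1.05 [-1.17 to -0.94]), and was under 2-fold with library totals or FPKM.

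Hspb7, a gene best known from heart and muscle (chromosome 4, 141420779 to 141425310), had 0 counts in cEpiSC and 51 in mESC. With the floor of 3 counts in place of 0 for the cEpiSC library, it was 18.0-fold lower, a figure without counting error. The upper 95% limit of the log2 ratio, which includes that error, was -3.82, a smaller difference. Its level in mESC was low, at 1.77 TPM, and with FPKM and a pseudocount of 1 it was not called at 2-fold. Hspb1, which encodes HSP27 and is the most abundant of the family, had 1143 TPM in cEpiSC and 962 TPM in mESC, at a log2 ratio of 0.30 (0.25 to 0.34). The level of Hspb8 relative to Hspb1, in TPM, was 0.0405 in cEpiSC and 0.166 in mESC.

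Hspb11, despite its symbol, encodes the intraflagellar transport protein IFT25 of cilia. It was called higher at 2-fold, with 174 estimated counts in cEpiSC and 77 in mESC (1.08 [0.70 to 1.5]), and lay just under 2-fold (0.91) when centred on transcript length. Hspb2 had 116 estimated counts in cEpiSC and 90.8 in mESC (0.26 [-0.14 to 0.68]), and Hspb6 had 189 in cEpiSC and 214 in mESC (-0.26 [-0.55 to 0.03]). Differences of Hspb2 and Hspb6 were not detectable at this depth. The exons of Hspb2 overlap those of its opposite-strand neighbour Cryab over 252 bases. Cryab had 82.5 estimated counts in cEpiSC and 217 in mESC. Whether the counting used strand is not given in the sources used here, so reads of such pairs could be mixed. The family was grouped by symbol, and so with Hspb11 and without genes of other symbols such as Cryab. It had 3 of its 6 tested genes above 0 and 3 below, at a median of 0.0034. Without Hspb11 the middle gene is Hspb6, at -0.26.

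**Figure D4:**
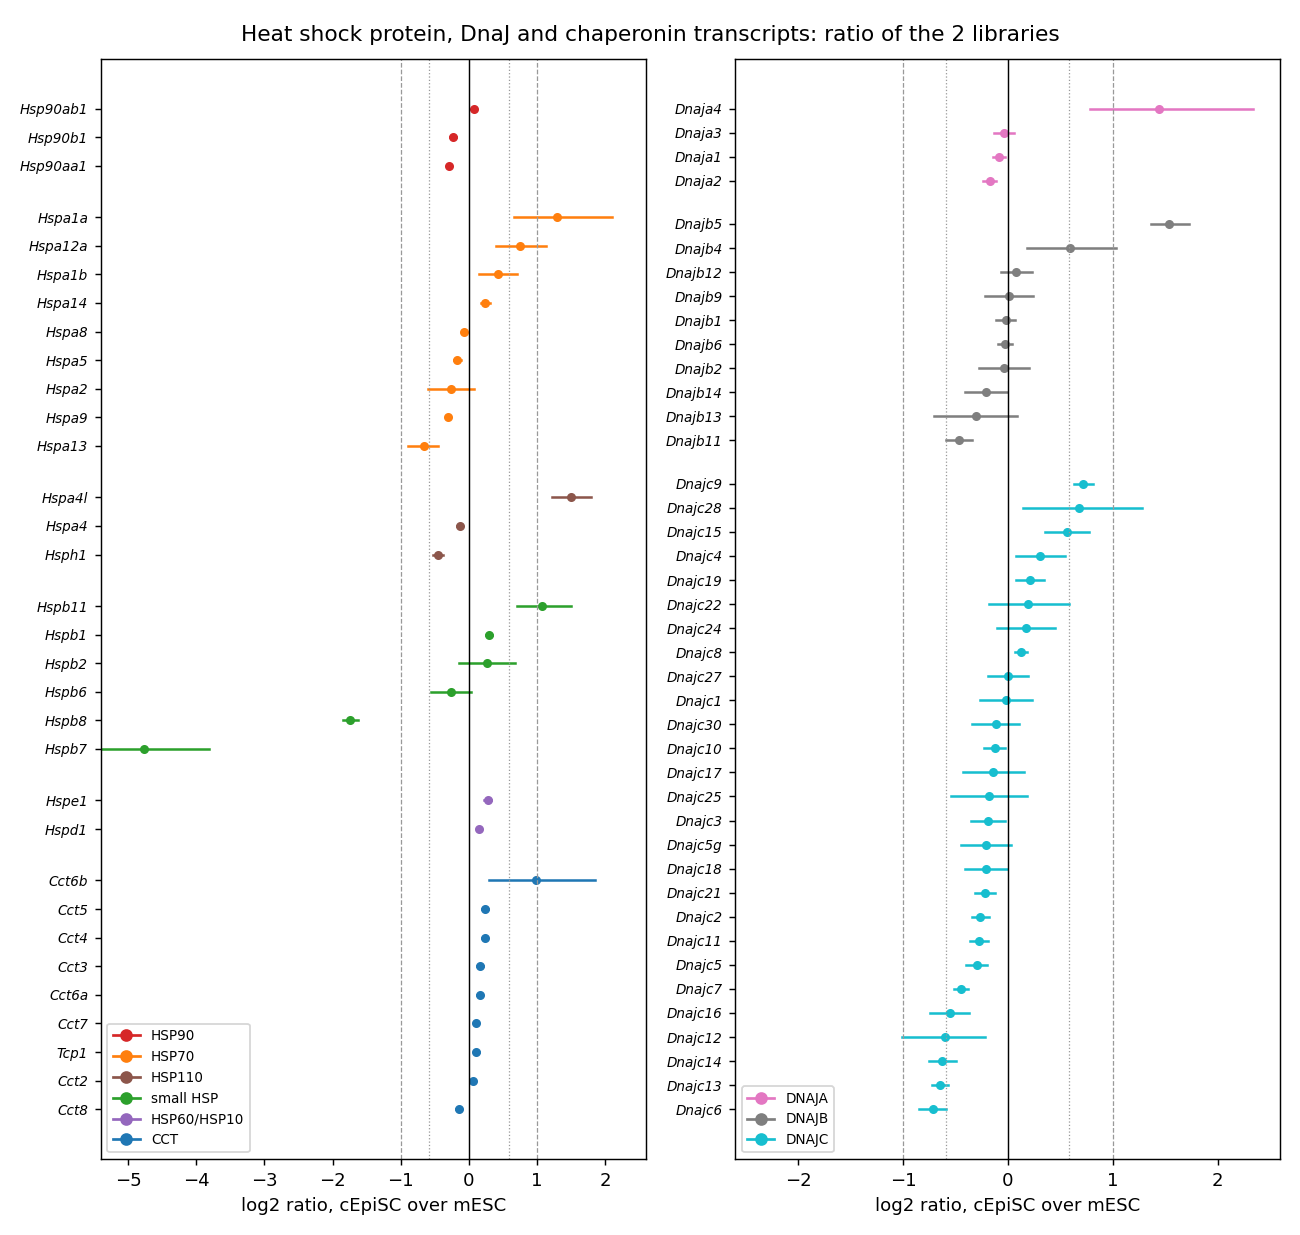
Log2 ratio of cEpiSC over mESC for each tested member, coloured by family, in 2 panels with different x scales. Points include a prior count of 2, horizontal lines are 95% intervals for counting error, dashed lines mark 2-fold and dotted lines 1.5-fold. The interval of Hspb7, at 0 counts in cEpiSC, runs off the left edge.

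The mitochondrial chaperonin pair was slightly higher in cEpiSC. Hspd1, encoding HSP60, had 628 TPM in cEpiSC and 584 TPM in mESC (0.15 [0.12 to 0.18]). Hspe1, encoding HSP10, had 704 TPM in cEpiSC and 601 TPM in mESC (0.27 [0.22 to 0.33]). The genes lie head to head on chromosome 1. The Hspd1 start used here (minus strand, 55087932) is that of a window holding the heat shock elements shown above. The listed gene extends to 55088243, past the Hspe1 start (plus strand) at 55088148, so 55087932 need not be its only start. The start used and that of Hspe1 are 216 bases apart. Their promoter windows share 285 bases, among them those elements. The sharing of the elements thus rests on the start used. The ratio of Hspd1 to Hspe1 in TPM was 0.892 in cEpiSC and 0.971 in mESC.

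The 8 ubiquitous subunits of CCT, which assemble in equal numbers into each ring of the cytosolic chaperonin, were all abundant and all within 1.5-fold. They summed to 4716 TPM in cEpiSC and 4485 TPM in mESC, with a median log2 ratio of 0.13. Cct4 (623 TPM in cEpiSC and 548 TPM in mESC, 0.23 [0.20 to 0.27]) and Cct5 (619 and 543 TPM, 0.24 [0.20 to 0.28]) had the highest ratios. Cct3 (472 TPM in cEpiSC and 434 TPM in mESC, 0.17), Cct6a (506 and 469 TPM, 0.16), Cct7 (745 and 713 TPM, 0.11), Tcp1 (567 and 543 TPM, 0.11) and Cct2 (782 and 774 TPM, 0.06) followed.

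Cct8 was the exception, with 402 TPM in cEpiSC and 460 TPM in mESC, a log2 ratio of -0.15 (-0.19 to -0.11). Thus 7 of the 8 ratios lay above 0 and 1 below, under each of the other settings too. Of all tested genes 48.8% lay above 0, and 43.8% of those at 10 CPM or more. Cct2 was only just above 0 in some settings, at 0.0016 with length centring and 0.015 with TPM. Within a library the subunits spanned a narrow range. The highest was 1.94 times the lowest in cEpiSC and 1.78 times in mESC, and the coefficient of variation over the subunits was 22.2% in cEpiSC and 21.7% in mESC. Cct8 stood at 0.645 of the level of Cct4 in cEpiSC and 0.840 in mESC. The counts of Cct8 and Tcp1 were partly not whole, and Cct6a, Cct7, Cct8 and Tcp1 overlap exons of opposite-strand genes over 452, 214, 192 and 571 bases at most. Cct6b, which encodes an isoform of the zeta subunit best known from testis, had 48 counts in cEpiSC and 22 in mESC (0.98 [0.29 to 1.84]) and was called higher at 1.5-fold, though not with FPKM. With library totals as the scale, or a prior count of 0.5, it passed 2-fold.

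**Figure D5:**
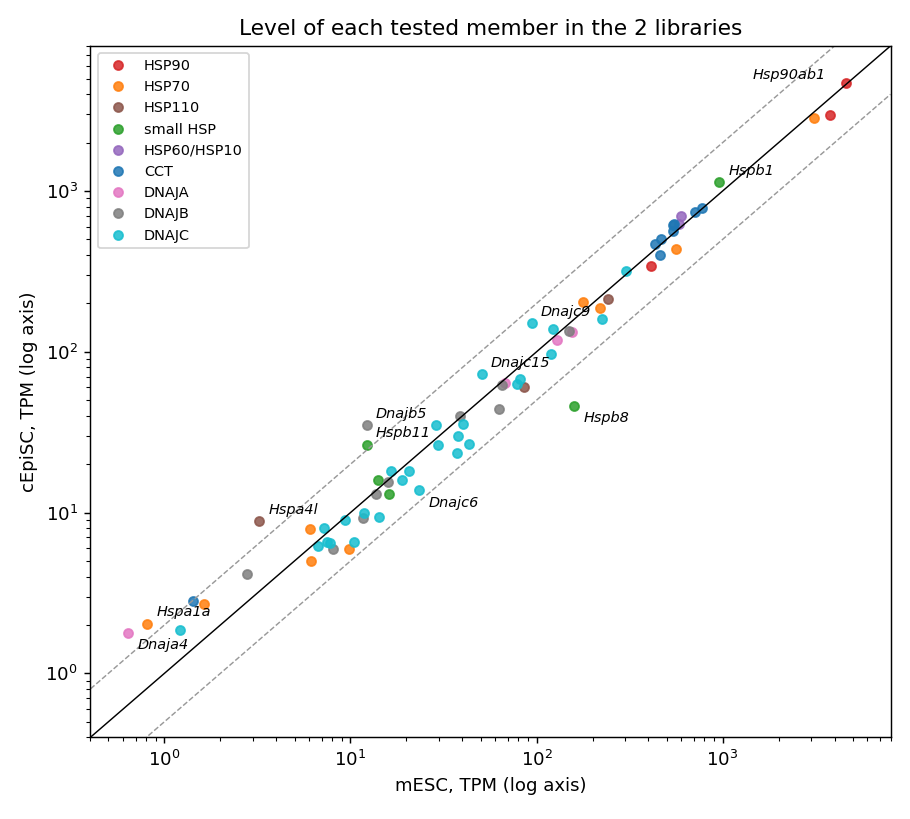
Level of each tested member in TPM in cEpiSC (y axis) and mESC (x axis), on log axes, coloured by family. The solid line marks equal levels and dashed lines 2-fold, and Hspb7, at 0 in cEpiSC, is not drawn. Members spread over more than 3 orders of magnitude in level and mostly lie along the solid line.

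The J-domain genes of class A, the general partners of HSP70, were within 1.5-fold except for the scarcest. Dnaja1 (118 TPM in cEpiSC and 129 TPM in mESC, -0.08 [-0.14 to -0.03]) and Dnaja2 (134 and 156 TPM, -0.17 [-0.23 to -0.11]) act in the cytosol. Dnaja3 acts in mitochondria and had 63.9 TPM in cEpiSC and 67.8 TPM in mESC (-0.03 [-0.13 to 0.06]). Dnaja4 had 61 counts in cEpiSC and 20 in mESC, a ratio of 1.44 (0.78 to 2.34). With TPM and FPKM, which carry a pseudocount of 1, it was under 2-fold, at deposited levels of 1.78 TPM in cEpiSC and 0.64 TPM in mESC. Its exons share 1581 bases with the opposite-strand gene Wdr61, which had 1994 counts in cEpiSC and 1304 in mESC. The part of Wdr61 reads in the counts of Dnaja4 was not tested.

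In class B, Dnajb5 stood out. It encodes a cytosolic J-domain protein related to DNAJB1 (chromosome 4, 42949867 to 42959425). Dnajb5 had 984 counts in cEpiSC and 319 in mESC, at 34.9 and 12.2 TPM, and was 2.92-fold higher, with a log2 ratio of 1.54 (1.36 to 1.73). Dnajb1, the stress-inducible HSP40, had 62.2 TPM in cEpiSC and 65.1 TPM in mESC (-0.02 [-0.11 to 0.07]). In TPM, Dnajb5 had 0.562 of the level of Dnajb1 in cEpiSC and 0.188 in mESC. Dnajb4, of the same cytosolic subgroup, had 124 counts in cEpiSC and 77 in mESC (0.59 [0.18 to 1.04]), called higher at 1.5-fold but not with a prior count of 5, TPM or FPKM.

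The most abundant gene of class B was Dnajb6, whose product prevents the aggregation of polyglutamine proteins. It had 134 TPM in cEpiSC and 149 TPM in mESC (-0.03 [-0.10 to 0.04]), partly from shared reads. Dnajb11, an ER partner of BiP, had 43.8 TPM in cEpiSC and 62.7 TPM in mESC (-0.47 [-0.59 to -0.35]). The other 5 tested genes of class B lay between -0.30 (Dnajb13) and 0.08 (Dnajb12).

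Class C, the most varied, had the lowest median among the J-domain classes, at -0.18. Of its 27 tested genes, 8 were above 0, where 48.8% of all tested genes were. Dnajc9, which encodes a J-domain protein that also binds histones H3 and H4 (chromosome 14, 20384638 to 20388910), was the highest. It had 2728 counts in cEpiSC and 1564 in mESC, at 150 and 94.3 TPM, and a log2 ratio of 0.72 (0.63 to 0.81). Dnajc28 had 74 counts in cEpiSC and 43 in mESC (0.68 [0.14 to 1.28]) and was called at 1.5-fold, though not with TPM or FPKM. Dnajc15, of the mitochondrial inner membrane, stood just inside 1.5-fold with 72.6 TPM in cEpiSC and 50.7 TPM in mESC (0.56 [0.35 to 0.78]), and passed it with library totals or FPKM.

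Of the 27 tested genes of class C, 4 were called lower at 1.5-fold, where 18.9% of all tested genes were. These 4 include Dnajc6 and Dnajc13, which act in membrane traffic. Dnajc6 encodes auxilin, which with HSC70 uncoats clathrin vesicles. It had 821 counts in cEpiSC and 1276 in mESC (-0.72 [-0.85 to -0.59]). Gak, the ubiquitous relative of auxilin, had 2182 counts in cEpiSC and 3284 in mESC (-0.67 [-0.75 to -0.59]), and was named after its value was seen. The ratio of Dnajc6 to Gak in TPM was 0.318 in cEpiSC and 0.329 in mESC. Dnajc13, which acts on endosomes, had 2404 counts in cEpiSC and 3551 in mESC (-0.64 [-0.72 to -0.57]). Dnajc6 and Dnajc13 were within 1.5-fold when centred on transcript length, and Dnajc13 also with library totals or FPKM.

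Dnajc14 had 830 estimated counts in cEpiSC and 1211 in mESC (-0.62 [-0.75 to -0.50]). It has shared reads and overlaps 1114 exonic bases of the opposite-strand gene Ormdl2, which had 1285 estimated counts in cEpiSC and 1198 in mESC. Dnajc12, a partner of the aromatic amino acid hydroxylases, had 93 counts in cEpiSC and 134 in mESC (-0.60 [-1.01 to -0.22]). Both lay within 1.5-fold with library totals or FPKM, and Dnajc12 also with TPM or a prior count of 5. In cEpiSC the most abundant genes of the class were Dnajc8, linked to splicing, with 319 TPM in cEpiSC and 302 TPM in mESC (0.13 [0.07 to 0.19]), Dnajc7, with 160 and 225 TPM (-0.45 [-0.51 to -0.38]), and Dnajc9. In mESC, Dnajc19 (138 TPM in cEpiSC and 123 TPM in mESC) and Dnajc2 (96.9 and 120 TPM) stood above Dnajc9. Dnajc7 encodes a protein that binds both HSP70 and HSP90.

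Grouped by compartment, 2 of the 10 ER members (Hspa5, Hsp90b1, Hspa13, Dnajb9, Dnajb11, Dnajb12, Dnajb14, Dnajc1, Dnajc3 and Dnajc10) had a ratio above 0, where 48.8% of all tested genes did. Hspa13 was called lower at 1.5-fold, where 18.9% of all tested genes were, and the other 9 were within 1.5-fold, at a median of -0.18. Dnajc1 (-0.02) was above 0 with library totals, FPKM and length centring, and Dnajb9 below 0 with TPM and length centring. The 3 carriers of an ER stress element shown above were below 0, with Hspa5 at -0.17, Dnajc3, an inhibitor of the kinase PERK, at -0.19 and Hsp90b1 at -0.23. With length centring they were at -0.15, -0.05 and -0.22 in that order. Dnajb9, a known target of the same response without such a match, was at 0.01 (-0.22 to 0.24). The 4 carriers of a 3-unit heat shock element did not share a direction, with Hspe1 at 0.27, Hspd1 at 0.15, Dnajb6 at -0.03 and Hsph1 at -0.45. Nor did the 6 stress-inducible cytosolic members, with Hspa1a, Hspa1b and Hspb1 above 0 and Dnajb1, Hsp90aa1 and Hsph1 below. The 9 mitochondrial members had a median of 0.15 with 5 above 0, and the 4 of the nucleus and RNA a median of -0.0048 with 2 above 0.

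The 8 members below 1 CPM in both libraries were given no ratio. In estimated counts of cEpiSC and then mESC, Dnajb3 had 16 and 3, Hspa12b 19 and 15, Hspa1l 9.27 and 4, Cct8l1 5 and 2, Dnajc5b 2 and 7, Hspb9 2 and 1, Dnajb7 0 and 1, and the pseudogene Dnajc19-ps 0 and 0.30. All 8 were thus scarce in both states, and Hspb9, Dnajb7 and Dnajc19-ps lay below the floor of 3 counts in each.

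The partners and regulators of these chaperones were followed in a list of 75 other genes, all of them tested. At 2-fold, 0 were called higher in cEpiSC and 3 (4%) lower, beside the 13.6% and 9.25% of all tested genes given above. At 1.5-fold, 4 (5.33%) were higher, namely Bbs10, Hsf4, Sgtb and Sil1, beside 20.7% of all tested genes. A further 7 (9.33%) were lower, beside 18.9%, among them Bag3, Bag5, Calr, Ddit3, Gak and Herpud1. A ratio above 0 was found for 32 (42.7%), and the median was -0.07. Ddit3, which encodes the stress factor CHOP, had the lowest ratio, with 106 counts in cEpiSC and 446 in mESC (-2.13 [-2.47 to -1.85]). Bag5, a nucleotide exchange factor of HSP70, had 140 counts in cEpiSC and 293 in mESC (-1.13 [-1.45 to -0.85]). With TPM or FPKM and their pseudocount it was under 2-fold, at deposited levels of 6.45 TPM in cEpiSC and 13.9 TPM in mESC.

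Of the heat shock factors, Hsf1 and Hsf2 were within 1.5-fold. Hsf1 had 41.6 TPM in cEpiSC and 52.1 TPM in mESC (-0.28 [-0.41 to -0.16]), and Hsf2 had 30.3 and 32.6 TPM (-0.06 [-0.19 to 0.08]). The scarce Hsf4 had 21 counts in cEpiSC and 11 in mESC (0.75 [-0.27 to 2.05]), with no difference detectable at this depth. Of the factors of the unfolded protein response, Ddit3, given above, was at -2.13, while Atf4 and Xbp1 went in opposite directions. Atf4 and Xbp1 were within 1.5-fold, except for Atf4 with TPM or length centring. Atf4 had 276 TPM in cEpiSC and 415 TPM in mESC (-0.55 [-0.61 to -0.50]), while Xbp1 had 54.0 TPM in cEpiSC and 45.1 TPM in mESC (0.31 [0.19 to 0.42]). Other genes of this response, named after their values were seen, also lay on both sides of 0. Atf6 was at 0.32 (0.17 to 0.47), Eif2ak3 at -0.20 (-0.34 to -0.07) and Ern1 at -0.09 (-0.48 to 0.29). The ER folding and quality control factors lay on both sides of 0. Calr, encoding calreticulin, had 563 TPM in cEpiSC and 898 TPM in mESC (-0.63 [-0.66 to -0.59]), which was within 1.5-fold with library totals or FPKM. Hyou1, the ER relative of HSP110, had 69.7 TPM in cEpiSC and 105 TPM in mESC (-0.54 [-0.60 to -0.48]), and the disulfide isomerase gene Pdia4 had 145 and 208 TPM (-0.47 [-0.53 to -0.41]). Herpud1 (-0.72), Sel1l (-0.49), P4hb (-0.32), Pdia3 (-0.22), Canx (-0.19) and Creld2 (-0.17) were below 0 too. On the other side were Sil1, a nucleotide exchange factor of BiP, with 1035 counts in cEpiSC and 556 in mESC (0.81 [0.67 to 0.97]), and Sdf2l1 (0.32), Edem1 (0.32) and Manf (0.25), while Pdia6 was at 0.05. Of these ER factors, all but Calr, Hyou1 and Pdia4 were named after their values were seen.

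Stip1, Stub1 and Hspbp1 were within 1.5-fold. Stip1, whose product HOP bridges HSP70 and HSP90, had 637 TPM in cEpiSC and 591 TPM in mESC (0.16 [0.12 to 0.19]). Stub1, encoding the ubiquitin ligase CHIP, had 79.7 TPM in cEpiSC and 112 TPM in mESC (-0.44 [-0.54 to -0.34]). Hspbp1, encoding a nucleotide exchange factor of HSP70, had 49.5 TPM in cEpiSC and 76.6 TPM in mESC (-0.57 [-0.70 to -0.44]), and was beyond 1.5-fold with TPM or length centring.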

How the data were processed

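The table deposited by the authors gives, per the file headers, estimated counts, TPM and FPKM of 18032 genes for both libraries. The deposited estimated counts are unscaled, and 11.9% (cEpiSC) and 11.3% (mESC) of genes hold a value over 0.005 from a whole number. TPM and FPKM, as deposited by the authors, are per transcript length. Build GRCm38.p6 and the tools RSEM 1.3.1, Bowtie2, HISAT2 and DESeq2 1.34.0 are named in the submitters' processing notes. For the role of each, the annotation and the use of strand, the answer is not given in the sources used here. Columns of other samples numbered 0.

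Counts were rounded and scaled by TMM in edgeR 4.0.16 (R 4.3.3), with factors of 1.03 (cEpiSC) and 0.975 (mESC). Ratios used a prior count of 2. Intervals are exact (Clopper-Pearson) at 95%, and the floor was 3 counts per library. With 1 library per state there are no residual degrees of freedom and no test, so calls describe these libraries by size. The script was tested on simulated counts. Other computation used Python 3.11.15 with pandas 2.3.3 and scipy 1.17.1.

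Members and lists were chosen with earlier results of these data known. Named were all tested HSP90, HSP110, HSP60/HSP10 and ubiquitous CCT genes. In the other families these were the genes 1.5-fold apart and the 3 most abundant, and in the list of 75 the genes 2-fold apart and 11 preset regulators. Other genes were named after their values were seen. The values of 1 gene of that list are not reported here. The share at 10 CPM or more was added as a description. Alternatives were DESeq2 1.42.0 size factors, library totals, no filter or one at 5 CPM, prior counts of 0.5 and 5, TPM and FPKM with a pseudocount of 1, and centring on the median of 10 bins of transcript length.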

Additional observations from a re-analysis of the deposited data

How the results depend on the processing

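Each count and median was recomputed with 9 alternatives, and members whose 1.5-fold or 2-fold call depended on one are described with the genes above. The scalings moved the median ratio of all tested genes by at most 0.07 (library totals), so changes of that size carry over to the families. Members called 2-fold higher numbered 3 with the 5 CPM filter, TPM or FPKM, and those called lower 1 with the 5 CPM filter or FPKM. At 1.5-fold, 6 were higher with the 5 CPM filter, and those lower numbered 4 with library totals, 3 with FPKM and 4 with length centring. Of the co-chaperone list, 1 was 2-fold higher with library totals and 1 lower with FPKM, and 4 were 1.5-fold lower with FPKM. The HSP90 median was -0.16 with library totals, -0.28 with TPM and -0.16 with FPKM. The HSP70 median was 0.23 without a filter, -0.12 with the 5 CPM filter, -0.12 with TPM and -0.10 with length centring. The HSP110 median was -0.063, -0.18, -0.062 and 0.0061 with library totals, TPM, FPKM and length centring, so its sign turned with the last. The HSP60/HSP10 median was 0.29, 0.17, 0.29 and 0.12 under the same 4. The small HSP median was 0.26 without a filter and with the 5 CPM filter. The CCT median was 0.23, 0.11 and 0.23 with library totals, TPM and FPKM, and that of the 8 ubiquitous subunits 0.21, 0.087 and 0.21. Library totals leave out the TMM factors, so that ratios of abundant genes all move by 0.07. The pseudocount of TPM and FPKM shrinks the ratios of scarce genes, and the filters change which genes are counted. The cause of the other shifts was not tested. Apart from Hspa4 with length centring, the ratios of members that turned sign were at most 0.04 from 0. Leaving out a library was not possible with 1 per state, and depth limits the scarce members: the interval of Dnaja4, with 61 counts in cEpiSC and 20 in mESC, runs from 0.78 to 2.34.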
